A study of Mus musculus with 63 samples.

Results

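The comparison set proximal tubular (PT) cells of kidneys whose obstruction had been reversed against PT cells of kidneys still obstructed, in mice with unilateral ureteric obstruction (UUO). The small RNA of 4 kidney cell populations, sorted from 16 mice, had been read in 63 libraries, and the 8 PT libraries labelled 7-day UUO or reversed UUO were taken by their labels. The 4 UUO-7 libraries come from young adult male C57BL/6 mice culled after 7 days of obstruction, and the 4 R-UUO libraries from mice of the same strain and sex whose ureter was reimplanted after 7 days and who were culled 14 days later. PT libraries of 4 sham-operated mice and of 4 mice after 2 days of obstruction (UUO-2) served as reference levels and helped to estimate the spread. PT cells were gated from digested cortex as negative for CD45 and CD31 and positive for the lectin LTL, a gate that may not separate the portions of the proximal tubule or keep out every other LTL-binding cell. UUO-7 and R-UUO mice differed in the time since ligation and in a further operation as well as in the obstruction itself, and these cannot be told apart. The question addressed was which miRNAs of PT cells differ once the kidney has been allowed to repair.

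A miRNA guides Argonaute to messenger RNAs that pair with its seed, the short stretch near its 5′ end, and thereby lowers their translation and stability. Proximal tubular cells reabsorb most of the filtrate through solute transporters and endocytosis, lose much of this differentiated state when injured, and can regain it during repair. miR-192 and miR-194 are abundant in tubular epithelium, while miR-21 is known for its rise in injured kidneys.

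Mature sequences of 13 of the miRNAs described here are printed below, with the seed (bases 2 to 8) in capitals and the rest in lower case. They were taken from RefSeq (build GRCm38.p6), in which 24 of the 26 loci singled out by rule had a matching entry, and are written 5′ to 3′. miR-92a-3p and miR-92b-3p are shown because both fell and share a seed. The other pair with a shared seed, miR-10a-5p and miR-10b-5p, held most of the counts of the library that stood apart. miR-203-5p and miR-203b-3p are read from opposite strands of the same stretch of DNA. If the strand was not used, 1 set of reads could be counted under both names, but its use is not given in the sources used here.
miR-92a-3p: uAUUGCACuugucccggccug
miR-92b-3p: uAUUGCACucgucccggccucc
miR-190a-5p: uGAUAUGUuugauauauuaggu
miR-501-3p: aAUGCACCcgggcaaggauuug
miR-8114: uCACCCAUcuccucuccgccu
miR-21a-5p: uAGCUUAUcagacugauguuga
miR-21a-3p: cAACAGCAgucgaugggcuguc
miR-455-5p: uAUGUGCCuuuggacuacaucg
miR-455-3p: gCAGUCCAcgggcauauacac
miR-203-5p: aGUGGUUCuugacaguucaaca
miR-203b-3p: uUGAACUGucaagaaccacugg
miR-10a-5p: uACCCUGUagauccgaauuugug
miR-10b-5p: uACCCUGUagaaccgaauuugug

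One library stood apart before any comparison was made. The total count was 2213466, 1665115, 5093294 and 2117619 in UUO-7 mice 2, 3, 4 and 5 and 3122831, 1406981, 616565 and 919659 in R-UUO mice 1, 2, 4 and 5. Values by mouse are given in this order throughout, as CPM, the count scaled to a common library total, after TMM scaling, which sets libraries to a common level from the bulk of their loci. In R-UUO mouse 1, miR-10a-5p and miR-10b-5p together held 71.5% of all counts (95% Wilson interval 71.4 to 71.5). The share was 38.4 to 42.3% in the other R-UUO mice, 35.9 to 47.1% at UUO-7 and 17.5 to 19.5% in sham. The other populations sorted from the same mouse did not show this level, with 35.7% in ECs, 18.6% in Macs and 38.8% in PDGFR-β+ cells. Of the other R-UUO libraries, that of ECs from mouse 4 had a share of 61.4%, against 33.0 to 37.7% in the other 3 EC libraries of R-UUO. The TMM factor of the PT library of mouse 1 was 0.427, against 0.996 to 1.13 in the other 3 R-UUO libraries. CPM are divided by this factor, so those of mouse 1 are raised against its shares of counts. Its miR-10a-5p, with 40.5% of the counts, stands at 948542 CPM. The order of mice at a locus, the overlap of groups and list medians by mouse therefore depend on the scaling. The 10 most abundant loci of mouse 1 held 86.4% of the counts (95% Wilson interval 86.3 to 86.4), against 68.8 to 72.5%, and miR-192-5p held 0.806% (interval 0.796 to 0.816), against 4.26 to 7.23%. Across the 330 loci tested, its Spearman correlation with the sham mean was 0.724 and that of the other R-UUO libraries 0.884 to 0.912, as a description over loci that are not independent replicates. UUO-7 mouse 4 had the highest total and the next lowest TMM factor, 0.781. Its median Spearman correlation with its own group was 0.962, against 0.944 to 0.946 in R-UUO mice 2, 4 and 5. Such intervals cover counting error only, because reads amplified by PCR are not independent molecules. The counts of calls, the changes of called loci and the medians of lists are therefore given with all 16 PT libraries in the fit and again without R-UUO mouse 1.

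**Figure D1:**
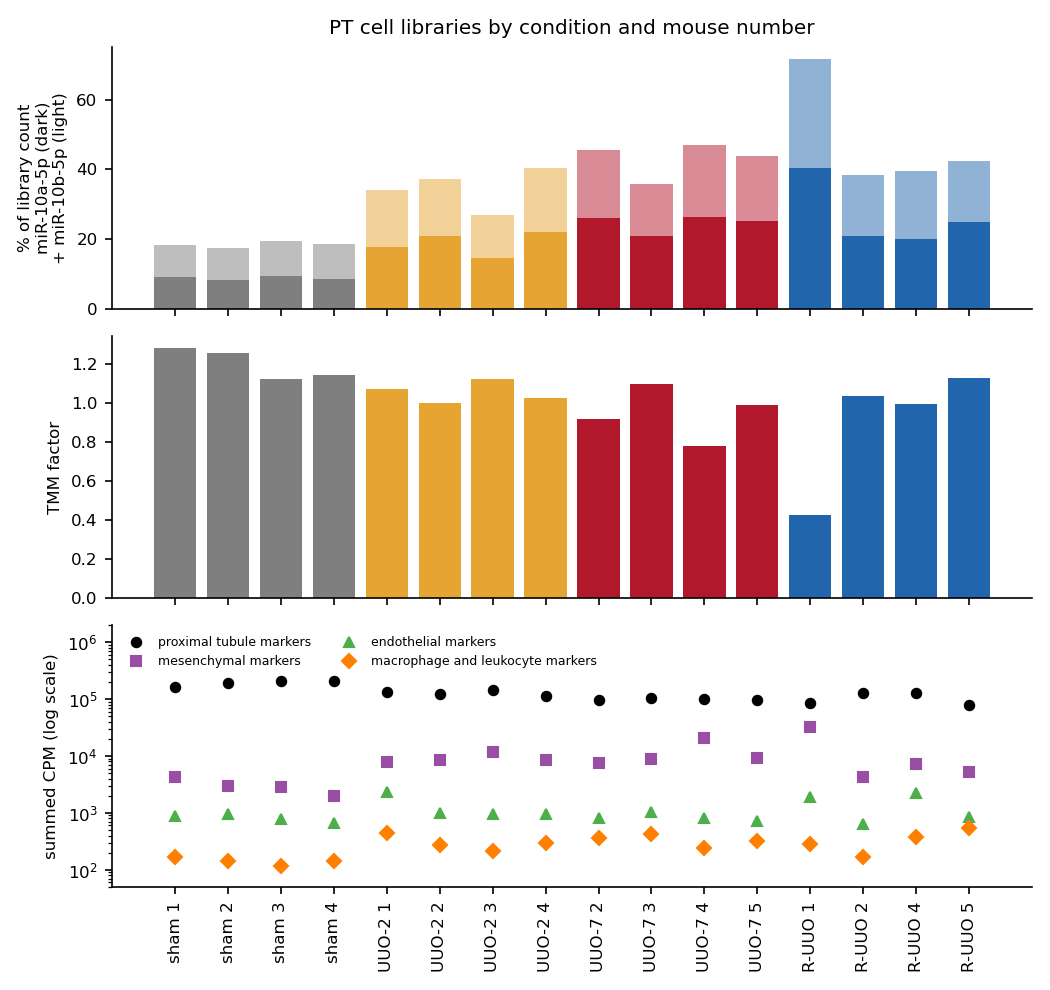
The 16 PT libraries by condition and mouse number. Bars show the share of counts held by miR-10a-5p and miR-10b-5p in percent (top) and the TMM factor (middle), and points show summed CPM of 4 marker lists on a log scale (bottom). R-UUO mouse 1 has the highest share (71.5%), the lowest TMM factor (0.427) and, in CPM divided by that factor, the highest mesenchymal sum.

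Markers of PT cells were abundant in all 8 libraries. Their summed level over 7 loci was 95082, 105434, 100639 and 95098 CPM at UUO-7 and 83885, 125017, 130086 and 77758 CPM in R-UUO, with ranges that overlapped. These CPM carry the TMM factor. As a share of library counts, the sum was by far the lowest of the 8 in R-UUO mouse 1. miR-192-5p and miR-30a-5p made up most of the sum, and miR-215-5p, a close relative of miR-192, had no count in 3 of the 8 libraries. Markers of other cell types were also present. Mesenchymal markers, led by miR-143-3p of smooth muscle and pericytes, summed over 12 loci to 7610.02, 8694, 20526 and 9275 CPM at UUO-7 and to 31606, 4282, 7075 and 5199.8 CPM in R-UUO. R-UUO mouse 1 and UUO-7 mouse 4 were the 2 highest, and the other 3 R-UUO mice lay below every UUO-7 mouse. As shares of the library, UUO-7 mouse 4 was the highest and R-UUO mouse 1 next. R-UUO mouse 4 then lay just above UUO-7 mouse 2. The endothelial markers, both arms of miR-126a, summed to 822, 1036, 824 and 715 CPM at UUO-7 and to 1895, 643, 2235 and 862 CPM in R-UUO, where mice 1 and 4 were high. As shares of the library, R-UUO mouse 4 stayed high and mouse 1 lay within the UUO-7 range. Macrophage and leukocyte markers, led by miR-142a-5p, were lower, at 365, 419, 244 and 319 CPM at UUO-7 and 281, 171, 373 and 542 CPM in R-UUO over 8 loci. None of these 3 lists had a locus at 0 in all 8 libraries, while 2 of 7 muscle and liver loci had no count in any. In bulk libraries, fewer cells of a type and less RNA per cell cannot be told apart, and neither can carry-over of other cells and expression by PT cells themselves. The part of these markers in the changes reported here was not tested.

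Reversal was followed by few changes that passed the test. Of the 2110 loci in the table, 1113 had a count in the 8 libraries and 330 passed the low-count filter with all 16 PT libraries. With edgeR's quasi-likelihood test, 5 of the 330 differed between R-UUO and UUO-7 at a Benjamini-Hochberg adjusted p (FDR) under 0.05 and a fold change over 1.5, which is 1.52% of the loci tested. 2 were higher and 3 lower in R-UUO, and 61 had an unadjusted p under 0.05. Without R-UUO mouse 1, 15 of 336 loci were called (4.46%), 10 higher and 5 lower, with 72 at an unadjusted p under 0.05. All 5 loci called with all libraries were among these 15, and 10 were called only without mouse 1. The CPM of the groups did not overlap at 15 loci lower in R-UUO (4.55% of those tested) and 8 higher (2.42%) with all mice, and at 23 lower (6.85%) and 25 higher (7.44%) without mouse 1. The count also moved with other mice. Leaving out R-UUO mouse 4 left 0 calls (56 at an unadjusted p under 0.05), as did leaving out UUO-7 mouse 2 (52) or mouse 5 (45), and leaving out UUO-7 mouse 3 or 4 left 2. Leaving out R-UUO mouse 5 gave 19 calls and R-UUO mouse 2 gave 7. With all libraries DESeq2 called 22 loci and limma voom 8. With R-UUO mouse 1 already left out, a further omission of R-UUO mouse 4 left 1 call, and of UUO-7 mouse 4 left 8, while omission of R-UUO mouse 5 gave 23.

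Of the 3 miRNAs that fell on reversal, miR-375-3p changed most. This miRNA, best known from pancreatic islets and also found in epithelia, lies between genes on chromosome 1 (74900661 to 74900682). Its level was 1529, 1087, 1860.04 and 1547 CPM at UUO-7 and 779, 757, 479 and 947 CPM in R-UUO. Every R-UUO mouse lay below every UUO-7 mouse, and mouse 1 lay among the other R-UUO mice. As a share of its library, mouse 1 was the lowest. The level was 2.03-fold lower after reversal (log2 change -1.02 ± 0.21, standard error; FDR 0.0329 by edgeR's quasi-likelihood test with Benjamini-Hochberg adjustment), and the change without mouse 1 was -1.01 ± 0.25 (FDR 0.0305). Sham mice had 98.4 ± 16.7 CPM (SD, n = 4) and UUO-2 mice 224 ± 44.7, so the R-UUO mean of 740.3 ± 194 remained above both. Set side by side, the log2 change from sham was 3.94 at UUO-7 (edgeR adjusted p 5.77e-09) and 2.91 in R-UUO (edgeR adjusted p 1.49e-07), or 2.93 in R-UUO without mouse 1 (edgeR adjusted p 6.08e-07). These comparisons share the UUO-7 or R-UUO libraries with the reversal comparison.

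miR-92a-3p and miR-92b-3p, which share the seed printed above, both fell. miR-92a-3p belongs to the miR-17-92 cluster, a polycistron known for driving proliferation, and the locus called lies in an exon of its host transcript Mir17hg on chromosome 14 (115044476 to 115044496). It was at 12620.5, 11184, 10108 and 11202 CPM at UUO-7 and at 6513, 5655, 5839.6 and 8914 CPM in R-UUO. The groups did not overlap, and R-UUO mouse 5 was the nearest to UUO-7. As a share of its library, R-UUO mouse 5 lay within the UUO-7 range. The level was 1.68-fold lower (log2 change -0.74 ± 0.14, edgeR quasi-likelihood FDR 0.0311), and the log2 change was -0.69 ± 0.16 without mouse 1 (FDR 0.0305). The sham mean was 5476 ± 384 CPM (SD, n = 4). Against sham the log2 change was 1.04 at UUO-7 (edgeR adjusted p 6.27e-05) and 0.30 in R-UUO (edgeR adjusted p 0.102), or 0.36 without mouse 1 (edgeR adjusted p 0.0923). A further locus of the same name on chromosome X held 509 CPM at UUO-7 and 464 CPM in R-UUO and was not called (log2 change -0.13, edgeR FDR 0.919, and 0.19 without mouse 1, edgeR FDR 0.604). How reads that fit both loci were placed is not given in the sources used here.

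The level of miR-92b-3p, between genes on chromosome 3 (89227126 to 89227147), was 783, 793, 633 and 851 CPM at UUO-7 and 307, 365, 376 and 599 CPM in R-UUO. All R-UUO mice lay below all UUO-7 mice, with mouse 1 lowest and mouse 5 close to UUO-7 mouse 4. As shares of the library, R-UUO mouse 5 lay above UUO-7 mouse 4. Its log2 change was -0.89 ± 0.20 (edgeR quasi-likelihood FDR 0.035) and -0.73 ± 0.20 without mouse 1 (FDR 0.0457). The sham mean of 557 ± 25.0 CPM (SD, n = 4) lay between the group means of 765 ± 93.1 at UUO-7 and 412 ± 129 in R-UUO. Neither difference from sham passed the test, with a log2 change of 0.46 at UUO-7 (edgeR FDR 0.0641) and -0.44 in R-UUO (edgeR FDR 0.0800), or -0.28 without mouse 1 (edgeR FDR 0.301).

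The 2 miRNAs that rose with all libraries were miR-190a-5p and miR-501-3p, both from introns of genes on the same strand. miR-190a-5p lies in an intron of Tln2, the gene of the adhesion protein talin 2, on chromosome 9 (67236700 to 67236721). It measured 22.6, 23.0, 15.3 and 19.1 CPM at UUO-7 and 30.0, 59.1, 96.1 and 29.9 CPM in R-UUO, from 31 to 86 counts a library. The groups did not overlap, R-UUO mice 2 and 4 were high, and mice 1 and 5 lay just above UUO-7. As a share of its library, R-UUO mouse 1 lay within the UUO-7 range. The level was 2.65-fold higher (log2 change 1.41 ± 0.33, edgeR quasi-likelihood FDR 0.035), and the log2 change without mouse 1 was 1.62 ± 0.29 (FDR 0.0100). Sham mice had 77.7 ± 13.0 CPM (SD, n = 4). The log2 change from sham was -1.96 at UUO-7 (edgeR adjusted p 0.000234) and -0.55 in R-UUO (edgeR adjusted p 0.164), or -0.35 without mouse 1 (edgeR adjusted p 0.367).

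miR-501-3p is encoded in an intron of Clcn5 on chromosome X (7241270 to 7241291), the gene of the chloride-proton exchanger that PT cells need for endocytosis. Its CPM were 91.3, 65.1, 95.6 and 93.6 at UUO-7 and 146, 159, 151 and 125 in R-UUO. In these TMM-scaled CPM every R-UUO mouse, mouse 1 included, was above every UUO-7 mouse, and UUO-7 mouse 3 was low. As a share of its library, mouse 1 lay below every UUO-7 mouse. It rose by a log2 of 0.75 ± 0.17 (1.68-fold, edgeR quasi-likelihood FDR 0.035) and by 0.77 ± 0.19 without mouse 1 (FDR 0.0305). Its UUO-7 mean of 86.4 ± 14.3 CPM was close to the sham mean of 86.2 ± 13.8 CPM (SD, n = 4; log2 change 0.0043, edgeR FDR 0.987), while the R-UUO mean of 145 ± 14.3 was above sham (log2 change 0.75, edgeR FDR 0.00336, and 0.78 without mouse 1, edgeR FDR 0.00562). In sham mice miR-501-3p was more than 4-fold higher in Macs than in each of the other populations, and the macrophage and leukocyte marker sum of R-UUO ran from 171 CPM in mouse 2, which had the highest miR-501-3p, to 542 CPM in mouse 5, which had the lowest. Their part in the result was not tested.

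All 5 calls were lost when R-UUO mouse 4, UUO-7 mouse 2 or UUO-7 mouse 5 was left out, under library size scaling, with only the UUO-7 and R-UUO libraries in the fit, and with the replicate number as a block. Of 18 alternatives, the call held in 12 for miR-92a-3p (adjusted p 0.000276 to 0.257), 11 for miR-375-3p (0.00156 to 0.246), 10 for miR-92b-3p (0.000678 to 0.269), 8 for miR-190a-5p (0.00115 to 0.248) and 7 for miR-501-3p (0.000967 to 0.335), by edgeR, limma or DESeq2. Leaving out UUO-7 mouse 3 also ended the calls of miR-92b-3p, miR-190a-5p and miR-501-3p, leaving out UUO-7 mouse 4 those of miR-375-3p, miR-190a-5p and miR-501-3p, and leaving out R-UUO mouse 2 those of miR-190a-5p and miR-501-3p. Over these omissions of 1 library each the log2 change ran from -1.17 to -0.87 for miR-375-3p, -0.91 to -0.68 for miR-92a-3p and -1.13 to -0.73 for miR-92b-3p. It ran from 1.0004 to 1.62 for miR-190a-5p and from 0.63 to 0.81 for miR-501-3p, so that all 5 passed the fold threshold in these omissions. With mouse 1 already left out, a further omission brought miR-92a-3p (-0.53), miR-92b-3p (-0.56) and miR-501-3p (0.57) under that threshold, a log2 of 0.585. The smallest changes of miR-375-3p (-0.76) and miR-190a-5p (1.21) stayed past it. Summing the loci of 1 name, which is not among the 18, kept the 3 lower calls and ended those of miR-190a-5p (1.35) and miR-501-3p (0.68).

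**Figure D2:**
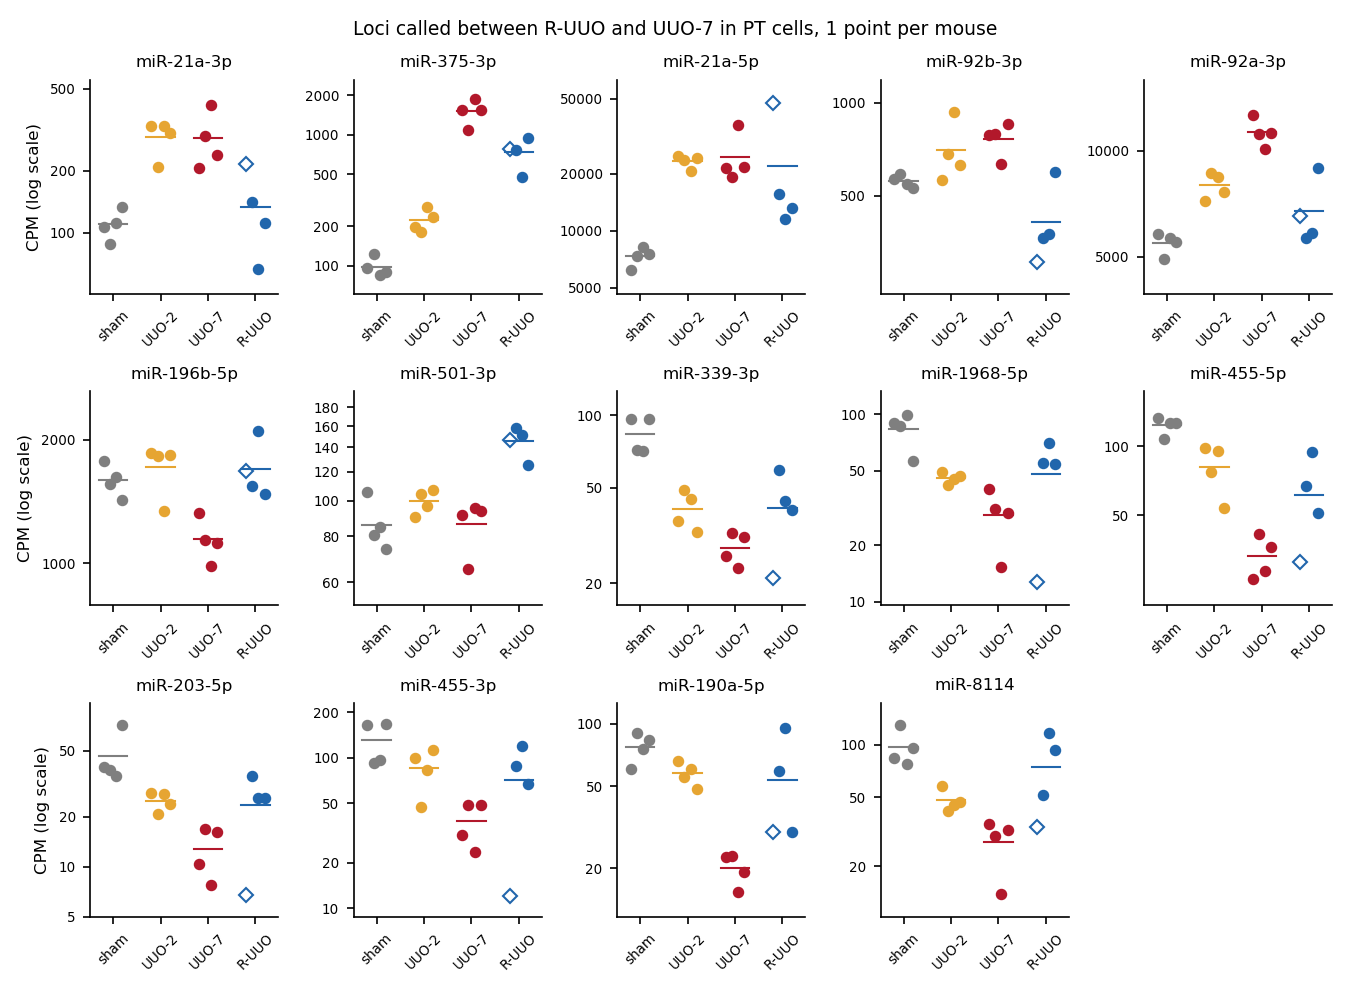
CPM (log scale) of 14 miRNAs called between R-UUO and UUO-7 with or without R-UUO mouse 1, by condition. Each point is 1 mouse (n = 4 a group), lines are means, and the open diamond is R-UUO mouse 1. In these TMM-scaled CPM it lies with the other R-UUO mice for miR-375-3p, miR-92a-3p and miR-501-3p, and far above them for miR-21a-5p (47276 against 11512 to 15677 CPM). miR-203b-3p is not drawn because its counts equal those of miR-203-5p.

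Of the 10 loci called only without R-UUO mouse 1, both arms of miR-21a fell. They come from 1 hairpin in an exon of Vmp1 on chromosome 11, and miR-21a is known for its induction in injured tubules and in fibrosis. miR-21a-5p (86584120 to 86584141) was at 21485, 19262, 36077 and 21684 CPM at UUO-7 and at 47276, 15677, 11512 and 13239.7 CPM in R-UUO. In these TMM-scaled CPM R-UUO mouse 1 was the highest of the 8 libraries, but as a share of its library it lay within the UUO-7 range. The other 3 R-UUO mice lay below every UUO-7 mouse either way. The log2 change was -0.17 ± 0.35 with all libraries (edgeR FDR 0.919) and -0.85 ± 0.21 without mouse 1 (edgeR quasi-likelihood FDR 0.0305). miR-21a-3p (86584082 to 86584103) was at 207, 296, 418 and 237 CPM at UUO-7 and at 215, 141, 66.7 and 112 CPM in R-UUO. Here mouse 1 lay inside the UUO-7 range, and the other 3 R-UUO mice below it. As shares of the library, every R-UUO mouse lay below every UUO-7 mouse for miR-21a-3p. Its log2 change was -1.10 ± 0.30 with all libraries (edgeR FDR 0.0612) and -1.39 ± 0.29 without mouse 1 (edgeR quasi-likelihood FDR 0.0185). In sham, miR-21a-5p had 7317 ± 854 CPM and miR-21a-3p 110.2 ± 19.0 (SD, n = 4). With all libraries the log2 change from sham in R-UUO was 1.58 for miR-21a-5p (edgeR FDR 0.00257) and 0.29 for miR-21a-3p (edgeR FDR 0.443). Without mouse 1 it was 0.92 for miR-21a-5p (edgeR FDR 0.00222) and 0.016 for miR-21a-3p (edgeR FDR 0.974). Both arms were more than 4-fold higher in Macs than in each other population in sham.

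The remaining 8 were all higher in R-UUO. miR-8114 had the largest log2 change of the 15 loci called without mouse 1. Its locus on chromosome 1 (153899989 to 153900009) lies within an exon of Glul, the gene of glutamine synthetase, and within an exon of Teddm2 on the opposite strand, so that fragments of these transcripts could be counted with the miRNA. It was at 34.8, 30.1, 13.8 and 32.5 CPM at UUO-7 and at 33.8, 51.5, 117 and 93.6 CPM in R-UUO. R-UUO mouse 1 lay inside the UUO-7 range, and the other 3 mice above it. Its log2 change was 1.40 ± 0.36 with all libraries (edgeR FDR 0.0572) and 1.68 ± 0.32 without mouse 1 (edgeR quasi-likelihood FDR 0.0100), from 45 to 97 counts a library, beside a sham mean of 96.4 ± 22.9 CPM (SD, n = 4).

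Both arms of miR-455, a miRNA known from cartilage that is encoded in an intron of the collagen gene Col27a1 on chromosome 4, rose without mouse 1. miR-455-5p (63256867 to 63256888) was at 26.5, 41.5, 28.7 and 36.3 CPM at UUO-7 and at 31.5, 67.3, 94.4 and 51.1 CPM in R-UUO, and miR-455-3p (63256904 to 63256924) was at 30.4, 48.7, 23.6 and 48.2 CPM against 12.001, 88.6, 119 and 66.6 CPM. For both arms R-UUO mice 2, 4 and 5 lay above all UUO-7 mice, whereas mouse 1 lay within or below them. The log2 change of miR-455-5p was 0.86 ± 0.29 with all libraries (edgeR FDR 0.107) and 1.103 ± 0.24 without mouse 1 (FDR 0.0194). For miR-455-3p the values were 0.91 ± 0.48 (edgeR FDR 0.333) and 1.30 ± 0.33 (FDR 0.0305). The sham means of 123 ± 10.9 and 130.3 ± 41.8 CPM were above both groups.

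Of the last 5, miR-196b-5p was the only abundant one. miR-203-5p and miR-203b-3p, whose loci on chromosome 12 overlap on opposite strands, had the same counts in every PT library and are 1 measurement. It was 10.3, 16.9, 7.80 and 16.2 CPM at UUO-7 and 6.75, 35.0, 26.0 and 26.0 CPM in R-UUO, where mouse 1 was the lowest of all 8 and the other 3 the highest. The log2 change was 0.88 ± 0.41 (edgeR FDR 0.265) and 1.25 ± 0.31 without mouse 1 (FDR 0.0305). miR-1968-5p, in an intron of Grtp1, was likewise lowest in R-UUO mouse 1 and highest in the other 3, with 39.8, 31.2, 15.3 and 29.6 CPM at UUO-7 and 12.8, 54.9, 70.0 and 54.0 CPM in R-UUO. Its change was 0.72 ± 0.39 (edgeR FDR 0.345) and 1.08 ± 0.28 without mouse 1 (FDR 0.0305). miR-339-3p, in an intron of 3110082I17Rik, was at 26.0, 32.3, 23.1 and 31.0 CPM and then 21.0, 59.1, 44.0 and 40.5 CPM. Mouse 1 was again the lowest of the 8, and the log2 change went from 0.55 ± 0.28 (edgeR FDR 0.319) to 0.82 ± 0.22 without it (FDR 0.0422). miR-196b-5p, in an exon of Hoxa9, was at 1326, 1142, 985 and 1123 CPM at UUO-7 and at 1681, 1541, 2102 and 1478 CPM in R-UUO. In TMM-scaled CPM the groups did not overlap even with mouse 1, but as a share of its library mouse 1 lay below every UUO-7 mouse. The log2 change of 0.57 ± 0.15 (edgeR FDR 0.0572) and of 0.60 ± 0.15 without mouse 1 (FDR 0.0305) lay close to the fold threshold.

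**Figure D3:**
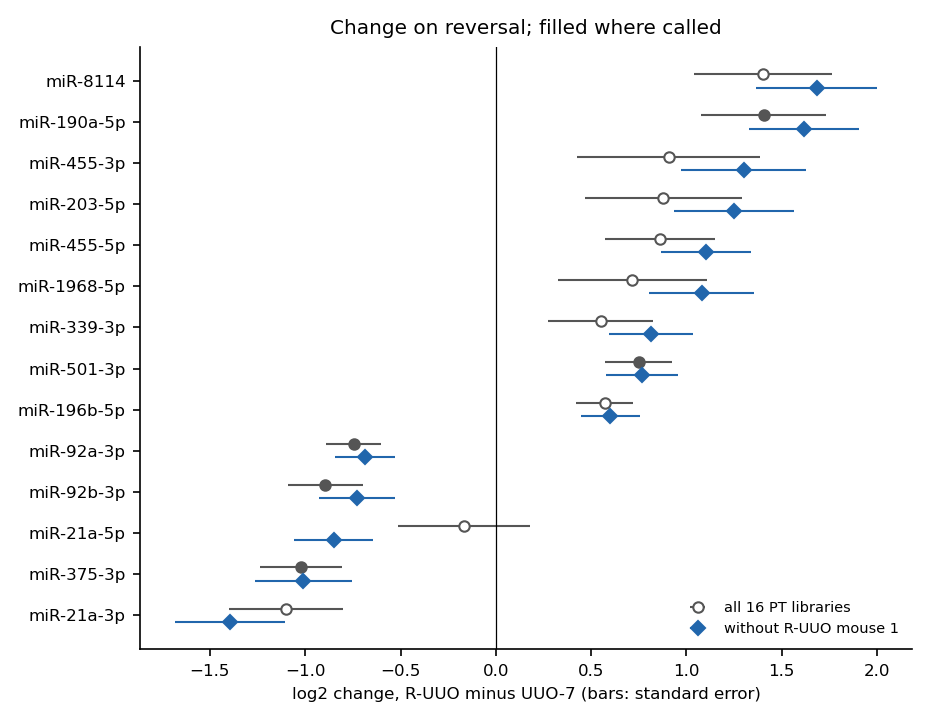
Log2 change from UUO-7 to R-UUO for the same 14 miRNAs, with all 16 PT libraries (circles) and without R-UUO mouse 1 (diamonds). Bars are standard errors, and filled symbols passed both thresholds. miR-21a-5p moves most, from -0.17 to -0.85, while miR-375-3p stays near -1.02 and -1.01.

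All 15 of these calls were lost when R-UUO mouse 4 was left out in addition, which leaves 2 R-UUO mice, and with only the UUO-7 and R-UUO libraries in the fit. Library size scaling ended the calls of miR-375-3p, miR-92a-3p, miR-92b-3p and miR-339-3p, and summing the loci of 1 name those of miR-339-3p and miR-196b-5p. With the replicate number as a block, only miR-92a-3p, miR-455-5p and miR-190a-5p were still called. Thinning to the smallest total ended the calls of miR-92b-3p, miR-501-3p, miR-203-5p, both arms of miR-455, miR-339-3p, miR-196b-5p and miR-1968-5p. With limma voom, the calls of miR-21a-3p, miR-203-5p, miR-203b-3p, miR-455-3p, miR-339-3p, miR-196b-5p and miR-1968-5p were lost. Over 17 alternatives without mouse 1, the call held most often for miR-190a-5p (15, adjusted p 4.31e-05 to 0.104), miR-8114 (14, 3.23e-05 to 0.104) and miR-21a-5p (14, 9.97e-06 to 0.125). It held least often for miR-339-3p (4, 0.0157 to 0.301) and miR-196b-5p (5, 0.0118 to 0.208), by edgeR, limma or DESeq2. Among the 10 smallest unadjusted p with all libraries were 2 loci that were called in neither fit. let-7f-5p on chromosome 13 was at 2260.3, 2283, 2304 and 1972 CPM at UUO-7 and at 1535, 1327, 1778 and 1726 CPM in R-UUO, with a log2 change of -0.47 ± 0.12 (edgeR FDR 0.0562) and of -0.43 ± 0.13 without mouse 1 (edgeR FDR 0.0611). The groups did not overlap, but the fold stayed under 1.5. miR-335-5p, with 5 to 39 counts a library, was at 3.93, 4.92, 3.52 and 2.87 CPM and then 29.3, 7.55, 27.7 and 4.82 CPM. R-UUO mice 1 and 4 were high, and the log2 change was 2.14 ± 0.57 (edgeR FDR 0.0612) and 1.66 ± 0.59 without mouse 1 (edgeR FDR 0.107).

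None of the 10 most abundant loci was called with all libraries, and miR-21a-5p alone was called without mouse 1. miR-10a-5p and miR-10b-5p, encoded in the Hoxb and Hoxd clusters, were the most abundant. miR-10a-5p was at 283788, 190077, 338792 and 254154 CPM at UUO-7 and at 948542, 200882, 202128 and 221744 CPM in R-UUO. Mouse 1 was far above all others, and the other 3 R-UUO mice lay within the UUO-7 range. The log2 change was 0.56 ± 0.41 (edgeR FDR 0.476) and -0.33 ± 0.20 without mouse 1 (edgeR FDR 0.373). miR-10b-5p, at 726129 CPM in mouse 1 and 153922 to 193864 CPM in the other R-UUO mice, changed sign in the same way (0.63 ± 0.40 and -0.20 ± 0.21). Both stood above sham at UUO-7, by a log2 of 1.85 (edgeR adjusted p 0.00243) and 1.30 (edgeR adjusted p 0.0157), and in R-UUO by 2.41 (edgeR adjusted p 0.000481) and 1.94 (edgeR adjusted p 0.00176). The R-UUO values without mouse 1 were 1.53 (edgeR adjusted p 2.58e-05) and 1.12 (edgeR adjusted p 0.000541).

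miR-192-5p, the leading PT marker, was at 42526, 58762, 35228 and 45074 CPM at UUO-7 and at 18871, 69854, 70154 and 37752 CPM in R-UUO, against a sham mean of 139205 ± 15806 CPM (SD, n = 4). R-UUO mice 2 and 4 were the highest of the 8 and mouse 1 the lowest. Its log2 change was 0.11 ± 0.31 (edgeR FDR 0.920) and 0.41 ± 0.20 without mouse 1 (edgeR FDR 0.244), and its difference from sham was -1.62 at UUO-7 (edgeR adjusted p 0.000732) and -1.50 in R-UUO (edgeR adjusted p 0.00166), or -1.21 without mouse 1 (edgeR adjusted p 0.000223). let-7f-5p on chromosome X was at 63542, 62708, 66558 and 54719.8 CPM at UUO-7 and at 48494, 36887, 49754 and 47768 CPM in R-UUO. The groups did not overlap, and the log2 change of -0.44 ± 0.14 had an edgeR FDR of 0.0851, and without mouse 1 the change was -0.44 ± 0.13 (edgeR FDR 0.0613). The other 5, miR-22-3p, miR-30a-5p, miR-26a-5p, miR-27b-3p and miR-30d-5p, had log2 changes from -0.22 to 0.07 with all libraries. Without mouse 1 miR-27b-3p had -0.51 (edgeR FDR 0.138), and miR-30a-5p, miR-26a-5p and miR-30d-5p, above 0 with all libraries, had -0.04, -0.12 and -0.16.

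Loci were also grouped by lists drawn from libraries outside the comparison. Of 52 loci more than 4-fold higher in PT cells than in each other population in sham mice, 38 could be tested with all libraries. Their median log2 change was 0.38, beside 0.03 over all 330 loci, with 29 above 0 and 1 called higher, where 175 of the 330 were above 0 and 2 called higher. Without mouse 1 the median over 39 loci was 0.59, beside 0.03 over all 336, with 32 above 0 and 6 called higher, where 178 of the 336 were above 0 and 10 called higher. These 6 were miR-8114, miR-203-5p, miR-203b-3p, miR-455-3p, miR-1968-5p and miR-190a-5p. Under library size scaling the list's median was 0.21 with all libraries and 0.66 without mouse 1, beside -0.07 and 0.16 over all loci. By mouse, the list's median deviation from the UUO-7 mean was -1.002, 0.68, 0.95 and 0.24 in R-UUO and 0.11, 0.38, -0.57 and 0.10 at UUO-7. R-UUO mouse 1 was the lowest of the 8, mice 2 and 4 were above every UUO-7 mouse, and mouse 5 lay within their range. miR-192-5p was the most abundant of these loci in every PT library, and their summed level was 25924 CPM in mouse 1, against 80537, 80419 and 46254 CPM in the other R-UUO mice.

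Lists of early injury came from the sham and UUO-2 libraries. Among 63 loci higher at UUO-2 than in sham, the median log2 change on reversal was 0.04 with all libraries, 27 below 0 and 1 called lower, and it was -0.35 without mouse 1, 45 below 0 and 3 called lower. Over all loci 155 of 330 were below 0 and 3 called lower, and 158 of 336 and 5 without mouse 1. The 3 called were miR-375-3p, miR-21a-5p and miR-21a-3p. Under library size scaling, which moved the median of all loci by -0.10 with all libraries and by 0.13 without mouse 1, these medians were -0.19 and -0.20. The list's median deviation was 0.99 in R-UUO mouse 1 and -0.25, -0.64 and -0.15 in mice 2, 4 and 5. UUO-7 mice ran from -0.23 to 0.41, so that mouse 1 lay above them, mice 2 and 4 below them and mouse 5 among them. Among 33 loci lower at UUO-2 than in sham, the median was 0.22 with 25 above 0 and none called, and 0.46 without mouse 1, with 29 above 0 and 5 called higher (over all loci, 178 of 336 and 10). These lists share members with the PT list, and miR-8114, miR-203-5p, miR-203b-3p and miR-1968-5p were counted in both.

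Loci enriched in the other populations of sham mice did not move as one. The 10 tested EC loci had a median log2 change of 0.60 with all libraries and 0.46 without mouse 1, and none was called. By mouse, this list's median deviation was 1.24, -0.81, 1.34 and 0.10 in R-UUO, against -0.23 to 0.39 at UUO-7. After TMM scaling R-UUO mice 1 and 4 were thus high, mouse 2 was low and mouse 5 lay within the UUO-7 range. The 19 tested Mac loci had a median of -0.07 and -0.15, with miR-501-3p called higher in both fits and, without mouse 1, also miR-339-3p higher and both arms of miR-21a lower. Over all 336 loci of that fit 10 were called higher and 5 lower. The Mac median without mouse 1 was 0.01 under library size scaling. The PDGFR-β+ loci had a median of 0.37 over 9 tested loci, and of -0.37 over 8 without mouse 1, with none called. Their sign thus turned with 1 library, as did that of the mesenchymal markers, whose median was 0.20 over 8 tested loci and -0.44 over 7 without mouse 1, and -0.27 with all libraries under library size scaling.

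**Figure D4:**
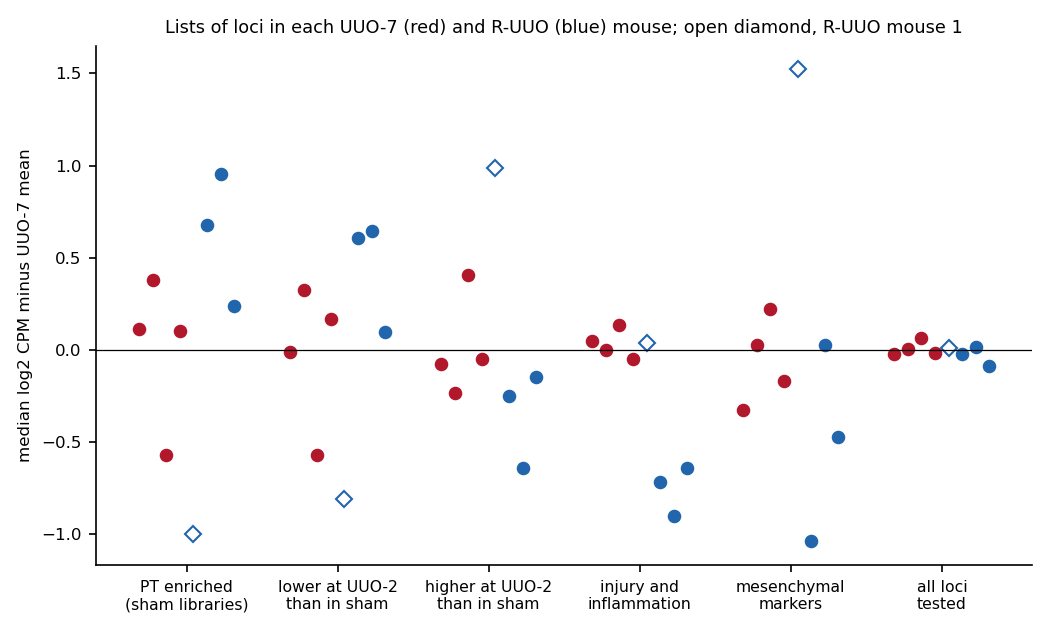
Median deviation from the UUO-7 mean (log2 CPM) over the loci of 5 lists and over all loci tested, 1 point per mouse. UUO-7 mice are red, R-UUO mice blue, and the open diamond is R-UUO mouse 1. It lies at -1.002 for PT-enriched loci and 0.99 for loci higher at UUO-2, while the other 3 R-UUO mice lie at 0.24 to 0.95 and -0.64 to -0.15.

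Among the families and pathways was a list of injury and inflammation. Of its 16 listed loci 7 could be tested, with a median log2 change of -0.36, 5 below 0 and miR-375-3p called. Without mouse 1 the median was -0.85 and 3 were called lower, miR-375-3p and both arms of miR-21a. Over all loci, 3 of 330 were called lower with all libraries and 5 of 336 without mouse 1. In R-UUO the list's median deviation was 0.04 in mouse 1 and -0.72, -0.90 and -0.64 in mice 2, 4 and 5, against -0.05 to 0.14 at UUO-7. Not called were miR-132-3p (-0.99, edgeR FDR 0.0612), miR-146b-5p (-0.36), miR-146a-5p (0.20) and miR-155-5p (0.08), which had -1.01 (edgeR FDR 0.0507), -0.49, 0.18 and 0.10 without mouse 1. Of 8 p53 and hypoxia loci 4 were tested, with medians of -0.75 and of -0.87 without mouse 1 that lie between 2 pairs of loci. The p53 targets miR-34a-5p and miR-34c-5p had -0.0096 and 0.37 with all libraries and 0.0045 and -0.011 without mouse 1. The arms of miR-210, the miRNA induced by hypoxia-inducible factor, had log2 changes of -1.96 (5p) and -1.49 (3p) and were not called (edgeR FDR 0.0612 and 0.0851), and had -2.06 and -1.73 without mouse 1 (edgeR FDR 0.0507 for each).

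The proliferation clusters (miR-17-92, miR-106a-363 and miR-106b-25) had 15 tested loci, with a median of -0.21 and 11 below 0, and without mouse 1 14 tested loci with a median of -0.37 and 11 below 0. Over all loci 155 of 330 were below 0, and 158 of 336 without mouse 1. miR-92a-3p on chromosome 14 was the only call in either fit, beside 3 of 330 and 5 of 336 called lower over all loci, and its cluster mates differed in sign, from -0.81 for miR-92a-1-5p to 1.55 for miR-19b-3p (edgeR FDR 0.142), which had -1.20 and 0.10 without mouse 1. The let-7 family (13 tested) had a median of -0.06, and of 0.17 without mouse 1. The miR-30 family (12 tested) had a median of 0.06, which became -0.09 under library size scaling, and of -0.05 without mouse 1, which became 0.11. None of either family was called, and miR-30e-5p came nearest in the latter (0.56, edgeR FDR 0.0921, and 0.51 without mouse 1). Hox cluster miRNAs (7 tested) had a median of 0.49, and of -0.20 without mouse 1 with miR-196b-5p called higher, beside 10 of 336 over all loci. Library size scaling brought these medians to 0.11 and -0.03.

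Epithelial miRNAs, namely the miR-200 family and miR-203, had 10 tested loci with a median of -0.20, and of -0.35 without mouse 1, with 1 called higher, miR-203-5p, beside 10 of 336 over all loci. The nearest of the others was miR-429-3p (-0.51, edgeR FDR 0.0851, and -0.48 without mouse 1). Tubule identity miRNAs (6 tested), which include miR-192, miR-194 and miR-204, had medians of 0.16 and 0.38, and the PT markers (6 tested) of 0.08 and 0.15, with none called. The 4 tested miR-29 loci, miRNAs that target collagens, had a median of 0.20, and the 5 tested without mouse 1 of 0.16. The miR-183 cluster (3 tested) had a median of 0.07, of -0.27 under library size scaling and of -0.58 without mouse 1. The only tested locus of the early tubule response list, miR-653-5p, had a log2 change of -0.03 with all libraries and of -0.45 without mouse 1 (edgeR FDR 0.489). Among marker lists without a call, the medians with and without mouse 1 were 0.94 and 0.72 for 2 endothelial loci, -0.10 and -0.06 for 4 leukocyte loci and -0.44 and -0.26 for 2 red cell loci. The leukocyte median without mouse 1 was 0.04 under library size scaling. 1 muscle and liver locus had 0.21, and -0.46 without mouse 1, with a sign that also turned under library size scaling (-0.17). No list has a test of its own, and the medians describe these loci only.

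Whether a change differed from that in another population was tested on all 63 libraries, as the reversal change in PT cells minus that in ECs, Macs or PDGFR-β+ cells. The populations came from the same mice, except that PDGFR-β+ cells had 3 libraries at UUO-7, with none from mouse 3. A difference passed at an FDR under 0.05 by edgeR's quasi-likelihood test and a fold difference over 1.5. Of 671 loci tested, 2 passed against ECs (miR-8114 and, outside the rule for named loci, miR-184-3p), 13 against Macs and 6 against PDGFR-β+ cells. Without the PT library of R-UUO mouse 1 the counts were 5, 27 and 36, and without all 4 libraries of that mouse 5, 44 and 32. With the mouse as a block they were 1, 17 and 6, and under library size scaling 2, 5 and 2. Of the 15 miRNAs called above, miR-8114 differed from each population. In this fit it had a log2 change of 1.33 in PT cells, -1.07 in ECs, -0.81 in Macs and -0.88 in the PDGFR-β+ population. The differences were 2.40 ± 0.49 (edgeR FDR 0.00324), 2.14 ± 0.48 (edgeR FDR 0.00803) and 2.22 ± 0.51 (edgeR FDR 0.0152), and all 3 passed without mouse 1 and with the mouse as a block.

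miR-92a-3p differed from PDGFR-β+ cells only, with a log2 change of -0.81 for PT and 0.03 for PDGFR-β+ cells (difference -0.84 ± 0.22, edgeR FDR 0.0471). The FDR was 0.0551 with the mouse as a block and 0.00694 without the PT library of mouse 1. In ECs and Macs its change was -0.43 and -0.72, and the differences from PT cells did not pass (edgeR FDR 0.831 and 0.943). Without the PT library of mouse 1, differences also passed for miR-21a-5p against Macs (-1.36, edgeR FDR 0.00942) and, against PDGFR-β+ cells, for miR-190a-5p (1.93, edgeR FDR 0.0317) and miR-455-5p (1.43, edgeR FDR 0.0192). The differences of miR-190a-5p from ECs and Macs did not pass there (edgeR FDR 0.584 and 0.920). With all libraries miR-190a-5p had a log2 change of 1.34 in PT cells, 0.78 in ECs and 1.45 in Macs. For miR-375-3p and miR-501-3p no difference from another population passed. Their log2 changes elsewhere were -0.66 in ECs, 0.63 in Macs and 0.18 in PDGFR-β+ cells for miR-375-3p, and 0.40, 0.65 and 0.47 for miR-501-3p, beside -1.08 and 0.68 in PT cells. The change of miR-375-3p in PT cells minus that in Macs was -1.71 ± 0.58 (edgeR FDR 0.108).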

How the data were processed

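The libraries were read paired-end, and no molecular identifiers are named. According to the submitters' processing notes and the study's methods, the authors checked quality with FastQC and trimmed with Trim Galore 0.4.1 and cutadapt 1.1. They used ShortStack and Bowtie with the GRCm38 genome and miRBase, and deposited a raw count for each genomic locus of a mature miRNA. Use of strand and placement of reads that fit several loci are not given in the sources used here. The mice sequenced were those nearest their group's mean kidney injury marker, so the spread between mice may be understated. 1 PDGFR-β+ library that the authors removed was not analysed here.

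The software was R 4.3.3, edgeR 4.0.16 (filterByExpr, TMM scaling, quasi-likelihood test), limma 3.58.1 and, as an alternative, DESeq2 1.42.0. The fit held the 16 PT libraries in 4 conditions (12 residual degrees of freedom) or 15 without R-UUO mouse 1 (11). p-values were adjusted by Benjamini-Hochberg over all loci tested, and a call needed an FDR under 0.05 and a fold change over 1.5. Log2 CPM used a prior count of 2, and 3 counts, taken as the limit of detection, equalled 0.754 to 4.88 CPM in the 8 libraries. No pair of libraries within a group agreed within sampling noise in a chi-square test. The code was run on simulated counts with known changes. Their spread was the same at all loci and no library stood apart, so the run does not measure error rates in these data. Differences between populations were fitted on all 63 libraries. There, populations of the same mouse share its number, from the labels. Their deviations correlated by -0.138 to 0.267 over 23 pairs.

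Named loci were all those called in either fit, then those with the smallest p up to 10, the 10 most abundant, and 2 to 4 members of each list. A few values were added because they were the only call or the nearest to a call of a list. Lists of families and markers came from general knowledge, and those of early injury and of enrichment (fold over 4) from fits of sham and UUO-2 libraries alone. Members and lists were chosen with earlier results of these data known. The alternatives were DESeq2, edgeR's likelihood ratio test, limma voom with sample weights, library size scaling, DESeq2 size factors, no filter, only the compared groups, the replicate number as a block, summed loci of 1 name, thinning to 616565 counts and each library left out. Counting identical loci once and leaving out mouse 1 in all populations were chosen after seeing the data.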

Additional observations from a re-analysis of the deposited data

Results flagged for a closer look

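In groups of 4 mice, 1 value was singled out where its gap to the nearest other value was large against the whole range of the group by Dixon's test. Chance flags about 1 in 20 independent groups, and here 13 of 120 groups held such a value. These groups share libraries, include loci with equal counts and hold loci named for their values, so the count cannot be set against that rate. R-UUO mouse 1 held 4 of them, with miR-10a-5p at 948542 CPM (200882 to 221744 in the other 3 R-UUO mice), miR-10b-5p at 726129 CPM (153922 to 193864), miR-21a-5p at 47276 CPM (11512 to 15677) and a Spearman correlation with the sham mean of 0.724 (0.884 to 0.912). The CPM of mouse 1 are divided by its TMM factor of 0.427, and the flags were not recomputed without that factor. UUO-7 mouse 4 was high in miR-21a-5p, at 36077 CPM (19262 to 21684 in the other 3), and in miR-27b-3p, at 35384 CPM (19326 to 20939). UUO-7 mouse 3 was low in miR-501-3p, at 65.1 CPM (91.3 to 95.6), and UUO-7 mouse 5 in let-7f-5p of chromosome 13, at 1972 CPM (2260.3 to 2304). R-UUO mouse 2 was low in let-7f-5p of chromosome X, at 36887 CPM (47768 to 49754). In the reference groups, sham mouse 4 was high in miR-203-5p and miR-203b-3p, whose counts are equal, at 71.6 CPM (35.2 to 39.9). UUO-2 mouse 3 was low in miR-196b-5p, at 1339 CPM (1825 to 1859), and the 10 most abundant loci of sham mouse 1 held 66.1% of its counts (68.6 to 68.9). Without UUO-7 mouse 3 miR-501-3p was not called, with a log2 change of 0.63, and leaving out UUO-7 mouse 4 gave miR-21a-5p a log2 change of 0.07 with all other libraries.

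Of 45 differences in the reversal change between PT cells and another population that were examined for the called miRNAs, 4 passed the test. Over all 671 loci tested, 2 differences passed against ECs, 13 against Macs and 6 against PDGFR-β+ cells. The called miRNAs were chosen for their change in PT cells, so their share cannot be compared with that of all loci. The log2 change of miR-8114 was higher in PT cells by 2.40 than in ECs, by 2.14 than in Macs and by 2.22 than in PDGFR-β+ cells. That of miR-92a-3p was lower in PT cells than in PDGFR-β+ cells (difference -0.84).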

How the results depend on the processing

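For the 26 named loci, 493 log2 changes were recomputed under the alternatives with all libraries. Of these, 395 kept their direction and side of the threshold, 44 lost a call, 26 gained one and 28 changed sign. Without R-UUO mouse 1 the figures were 466, 344, 108, 2 and 12. Changes of sign were at loci not called in the same fit, and the cause was not tested. One of these loci, miR-21a-5p, was called without mouse 1 and changed sign with all libraries when UUO-7 mouse 4 (0.071), R-UUO mouse 4 (0.047) or R-UUO mouse 5 (0.023) was left out.

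The count of called loci, 5 with all libraries and 15 without mouse 1, was 22 and 26 with DESeq2, 15 and 27 with the likelihood ratio test, 8 and 9 with limma voom, 0 and 13 with library size scaling, 5 and 19 with DESeq2 size factors, 24 and 26 without a filter, 3 and 17 with summed names, 2 and 7 after thinning, and 5 and 12 with identical loci counted once. With edgeR and only the 2 groups compared, 0 and 0 were called (32 and 57 at an unadjusted p under 0.05). Library size scaling left 38 at that p, and its calls without mouse 1 were 11 higher and 2 lower, against 10 and 5. Without mouse 1 the split was 10 higher and 9 lower with DESeq2 size factors, and more were lower than higher without a filter (15 and 11), with summed names (9 and 8), after thinning (4 and 3), without UUO-7 mouse 3 (11 and 8), without R-UUO mouse 5 (13 and 10) and without UUO-7 mouse 2 (6 and 4). Leaving out 1 library gave 0 to 19 and 1 to 23 calls. The replicate number as a block gave 0 (36 at an unadjusted p under 0.05) and 3. UUO-7 and R-UUO mice of 1 number are different mice. Their deviations correlated by -0.04, -0.60 and 0.22, and only number 5 matched best with itself, so no pairing was assumed.

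Differences between populations numbered 2 (ECs), 13 (Macs) and 6 (PDGFR-β+ cells). Without mouse 1 in PT cells they numbered 5, 27 and 36, and without it in all populations 5, 44 and 32. With the mouse as a replicate block 1, 17 and 6 passed, and under library size scaling 2, 5 and 2. Of the 4 differences that passed for called miRNAs, the block ended that of miR-92a-3p.

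With all libraries, limma voom turned miR-10a-5p (-0.19), miR-10b-5p (-0.0061) and miR-22-3p (0.10). Library size scaling turned miR-30a-5p (-0.067), miR-26a-5p (-0.11) and miR-30d-5p (-0.11), summed names turned miR-30a-5p (-0.016), miR-26a-5p (-0.019) and miR-30d-5p (-0.0064), and the replicate block turned miR-26a-5p (-0.011) and miR-30d-5p (-0.023). Leaving out 1 library gave -0.85 to 0.071 for miR-21a-5p, -0.33 to 0.79 for miR-10a-5p, -0.20 to 0.87 for miR-10b-5p, -0.21 to 0.062 for miR-22-3p, -0.17 to 0.41 for miR-192-5p, -0.040 to 0.19 for miR-30a-5p, -0.12 to 0.17 for miR-26a-5p, -0.51 to 0.014 for miR-27b-3p and -0.16 to 0.23 for miR-30d-5p. Without mouse 1, limma voom and library size scaling turned miR-22-3p (0.12 and 0.060), miR-30a-5p (0.098 and 0.11), miR-26a-5p (0.021 and 0.024) and miR-30d-5p (0.011 and 0.00026). Leaving out a further library gave -0.22 to 0.079 for miR-22-3p and -0.19 to 0.084 for miR-30a-5p.

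With 4 mice a group, chosen for a typical injury marker, the count of calls moved with single libraries. The smallest library held 616565 counts, and miR-190a-5p, miR-8114, miR-203-5p, miR-203b-3p, miR-339-3p, miR-1968-5p and miR-335-5p rest on fewer than 100 counts in each library.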
